A study of Mus musculus with 27 samples.

Results

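The genes described here lie in nuclear DNA and encode subunits of the mitochondrial respiratory chain and of ATP synthase, the machinery of oxidative phosphorylation. They were chosen by symbol, as protein-coding genes beginning with Nduf (followed by a, b, c, s or v and a digit), Uqcr, Cox4 to Cox8 (followed by a, b or c) or Atp5. They also had to reach a value of at least 10 in at least 3 of 27 samples. Of 81 genes with such a symbol, 65 reached that level. Of all 45070 genes listed, 13901 did. The samples held RNA attached to chromatin, which is rich in transcripts still being made, from bone marrow-derived macrophages (BMDM, macrophages grown from mouse marrow) of wild type genotype. Per the study's methods, the marrow came from male mice of the C57/BL6 strain, several weeks old. All groups, the untreated one included, had 1 h of DMSO, and the stimulated cells then received LPS, a bacterial cell wall component, or the cytokine IL-4. Either was given at 10 ng/ml, and cells were taken after 0.5, 1, 2 or 4 h. Each of the 9 groups had 3 samples. Untreated samples stood at time 0 only. A change against them, or between times, therefore combines the stimulus with time in culture, and these cannot be told apart. The labels do not say whether these came from separate animals or cultures, so p-values measure the spread between samples, which may be technical.

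The respiratory chain passes electrons from NADH and succinate to oxygen and pumps protons across the inner mitochondrial membrane. Complex I takes electrons from NADH, complex III hands them from ubiquinol to cytochrome c, complex IV passes them to oxygen, and ATP synthase, also called complex V, lets the protons flow back and makes ATP. Most subunits are encoded in the nucleus and joined by a small core encoded in mitochondrial DNA. Macrophages given LPS are known for a shift towards glycolysis, whereas macrophages given IL-4 are known for reliance on respiration.

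The 65 genes comprised 32 for complex I, 6 for complex III, 11 for complex IV and 16 for ATP synthase. Ndufa4 was counted with complex IV, where its protein is now placed despite its name. The symbol rule left out complex II, the genes of mitochondrial DNA and a few subunits with other names, such as Cox4i1, Cyc1 and Ndufab1. Because the level rule used the values themselves, the levels of these genes are given as a description. Just inside the limit were Ndufc1, which reached 10 in exactly 3 samples, and Atp5k, which did so in 4. Just outside was Uqcr10, which reached 10 in 2 samples with a highest value of 12. Atp5k passed only through its values at 4 h of LPS, and Ndufc1 reached 10 only in 1 sample each of LPS at 4 h and IL-4 at 2 and 4 h, so a direction in these 2 genes is partly set by the rule. Of the 16 genes that failed, Atp5g1, Ndufa6 and Cox8c were listed at 0 in every sample. The others never exceeded 12, among them Ndufa1, Ndufa2, Ndufb11 and Uqcr11, and the muscle-type isoforms Cox6a2, Cox7a1 and Cox8b.

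Values were normalized read counts that the authors had rounded to whole numbers. The 65 genes were short, with a median span of 7346 bases against 21523 for all genes tested, and their values were low, with a median of 23.3 against 47.9. Only 14 averaged at least 50. The median SD between samples of a group, on the scale log2(value + 1), was 0.258 for the 65 genes, 0.192 for those 14 and 0.25 over all genes tested. Fold changes below are on that scale, which understates the change of low values. At its untreated level per 1000 bases of span, Ndufs8 stood highest at 13.5 and Uqcrc1 followed at 10.6, with a median of 3.34 over the 65 genes. Whether reads were counted over the span or over exons was not stated. In all, 15 overlapped another annotated gene and 23 faced another gene head to head within 1000 bases. Counting by strand was not stated, so reads from an overlapping partner cannot be told apart.

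The table totals were 2488987 to 2578543 in untreated samples, 3571492 to 4058199 under LPS and 2469768 to 2790981 under IL-4. The median gene of all 13901 stood at -0.30 to -0.24 (log2) against untreated at the LPS times and at -0.02 to 0.02 at the IL-4 times, and changes under LPS are relative to that shift. All 10 macrophage markers were measured, with sums of 10064 to 19854 per sample. Sums never exceeded 8 for 5 B cell markers, 2 for 5 erythroid markers, 31 for 6 neutrophil markers and 34 for 5 T cell markers. Of these, 3 erythroid and 2 T cell markers were at 0 in every sample. Sums of 5 dendritic cell markers were 6 to 9 untreated and 48 to 103 at 1 h of LPS, where they were highest. Sums of 5 fibroblast markers were 39 to 92 untreated and 107 to 280 at 4 h of LPS. Their part in the results was not tested. In bulk samples, fewer cells of a type and less RNA per cell cannot be told apart.

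Promoter sequences are shown for 8 subunit genes whose courses are described below, namely Ndufv2, Ndufv3, Ndufs3 and Atp5c1, which were low at 0.5 h of LPS, and Ndufb1, Ndufs4, Ndufs8 and Atp5b, which were high later. Other subunit genes, such as Ndufb7 and Atp5o, changed more than some of these 8, from lower values. Ndufs6 is added as an example of a promoter with sites of 2 kinds. Atp5h, Atp5k and Cox6a1, not shown, also held sites of 2 kinds. Each runs 5′ to 3′ on the gene's strand from 250 bases before to 50 after the start (RefSeq, GRCm38.p6). Capitals mark matches on either strand to CCGGAAG, a core that ETS factors such as GABP bind, or to the motif of NRF1 or of YY1.
Ndufv2 (chr17:66101510-66101809, minus strand): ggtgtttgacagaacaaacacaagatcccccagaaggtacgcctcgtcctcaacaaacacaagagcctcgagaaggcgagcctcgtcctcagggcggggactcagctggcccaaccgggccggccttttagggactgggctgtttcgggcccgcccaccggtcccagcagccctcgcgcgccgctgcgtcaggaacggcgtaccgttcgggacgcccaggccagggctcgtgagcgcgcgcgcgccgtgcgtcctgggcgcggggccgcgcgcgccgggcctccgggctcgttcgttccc
Ndufv3 (chr17:31519865-31520164, plus strand): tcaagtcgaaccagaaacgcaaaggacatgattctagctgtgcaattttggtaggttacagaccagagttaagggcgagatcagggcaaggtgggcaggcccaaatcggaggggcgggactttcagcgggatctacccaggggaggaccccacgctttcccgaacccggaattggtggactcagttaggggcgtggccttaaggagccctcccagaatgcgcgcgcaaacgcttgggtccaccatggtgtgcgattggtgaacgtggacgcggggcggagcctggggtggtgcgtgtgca
Ndufs3 (chr2:90904672-90904971, minus strand): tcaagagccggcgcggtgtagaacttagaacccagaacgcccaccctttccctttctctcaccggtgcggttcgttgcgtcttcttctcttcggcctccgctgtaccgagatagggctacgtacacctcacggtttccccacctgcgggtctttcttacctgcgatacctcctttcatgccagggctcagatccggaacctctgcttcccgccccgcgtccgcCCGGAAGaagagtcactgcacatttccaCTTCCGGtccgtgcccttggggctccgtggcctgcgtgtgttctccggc
Atp5c1 (chr2:10080461-10080760, minus strand): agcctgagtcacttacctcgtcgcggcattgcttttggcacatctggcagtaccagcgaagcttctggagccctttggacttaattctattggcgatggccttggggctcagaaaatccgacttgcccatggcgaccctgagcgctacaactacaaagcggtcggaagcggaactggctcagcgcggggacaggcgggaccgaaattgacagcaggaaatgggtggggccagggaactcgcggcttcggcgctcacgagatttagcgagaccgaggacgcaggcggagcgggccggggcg
Ndufb1 (chr12:101975689-101975988, minus strand): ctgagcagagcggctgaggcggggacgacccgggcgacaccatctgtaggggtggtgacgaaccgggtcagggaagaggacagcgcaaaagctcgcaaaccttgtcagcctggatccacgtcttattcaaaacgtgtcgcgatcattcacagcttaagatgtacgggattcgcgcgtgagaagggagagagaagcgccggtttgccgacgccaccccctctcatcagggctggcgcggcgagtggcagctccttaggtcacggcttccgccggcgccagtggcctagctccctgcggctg
Ndufs4 (chr13:114388045-114388344, minus strand): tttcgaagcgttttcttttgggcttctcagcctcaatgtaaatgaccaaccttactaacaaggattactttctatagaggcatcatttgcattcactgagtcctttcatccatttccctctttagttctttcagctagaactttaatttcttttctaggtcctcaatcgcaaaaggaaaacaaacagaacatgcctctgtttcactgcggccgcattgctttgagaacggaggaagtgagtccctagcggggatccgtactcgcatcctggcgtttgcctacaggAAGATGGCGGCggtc
Ndufs8 (chr19:3912725-3913024, minus strand): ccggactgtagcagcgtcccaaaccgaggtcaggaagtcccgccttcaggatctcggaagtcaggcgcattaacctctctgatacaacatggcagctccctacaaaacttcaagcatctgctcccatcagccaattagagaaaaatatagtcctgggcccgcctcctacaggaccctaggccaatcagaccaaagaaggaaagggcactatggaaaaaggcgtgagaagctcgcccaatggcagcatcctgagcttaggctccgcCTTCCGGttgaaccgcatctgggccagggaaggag
Atp5b (chr10:128083057-128083356, plus strand): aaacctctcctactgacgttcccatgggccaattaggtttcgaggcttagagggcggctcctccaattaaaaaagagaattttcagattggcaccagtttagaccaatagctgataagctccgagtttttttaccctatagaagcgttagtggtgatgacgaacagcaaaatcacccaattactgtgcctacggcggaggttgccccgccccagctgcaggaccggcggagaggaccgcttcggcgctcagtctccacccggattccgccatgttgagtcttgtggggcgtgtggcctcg
Ndufs6 (chr13:73328433-73328732, minus strand): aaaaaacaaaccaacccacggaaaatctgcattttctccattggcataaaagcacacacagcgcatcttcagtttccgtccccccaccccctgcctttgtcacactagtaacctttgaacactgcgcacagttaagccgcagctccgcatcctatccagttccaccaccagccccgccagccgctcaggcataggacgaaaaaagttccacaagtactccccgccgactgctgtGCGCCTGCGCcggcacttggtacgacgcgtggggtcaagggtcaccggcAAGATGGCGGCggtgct

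A promoter was given for 56 of the 65 genes and for 10698 genes tested. The NRF1 motif was in 13 of the 56 (23.2%, against 9.66% of all tested promoters), CCGGAAG in 13 (23.2% against 17.0%) and the YY1 motif in 4 (7.14% against 2.36%). GGGCGG, the box that SP factors bind, was in 22 (39.3% against 57.8%), and TATAAA in 6 (10.7% against 7.93%). The NF-kB motif was in 0 of the 56 and in 1.77% of all tested promoters. No motif here is contained in another, and these are matches of letters, not known sites. Of the 13 promoters with the NRF1 motif, 10 belonged to genes lower at 0.5 h of LPS, as did 37 of all 56. In the sequences above, Ndufs3 held CCGGAAG 27 bases before the start and again from base 2 after it, whereas Ndufv2, Ndufv3, Atp5c1, Ndufb1 and Atp5b held none of the 3 capitalized motifs.

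At 0.5 h of LPS a large share of the subunit genes was lower, with 25 of the 32 for complex I among them. Against untreated cells, 41 of 65 genes were lower (63.1%) and 2 were higher (limma moderated test, adjusted p under 0.05), where 34.4% of all genes tested were lower and 19.6% higher. The median change was -1.03 (log2) over the 65 genes and -0.24 over all genes. With median-of-ratios scaling, where each sample is divided by its median ratio to the typical sample, 35 were lower and 5 higher (27.1% and 25.8% of all genes), and with each sample scaled to an equal total 51 were lower and 1 higher (52.2% and 11.7% of all genes). Complex I accounted for 25 of the lower genes (of 32, median -1.87), complex III for 2 of 6 (median -0.69), complex IV for 6 of 11 (median -0.78) and ATP synthase for 8 of 16 (median -0.81). The difference between complexes was not tested. Of the 41 calls, 25 held whichever replicate number was left out. The count was 27 without replicate 3, and the higher genes were 4 without replicate 1.

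**Figure D1:**
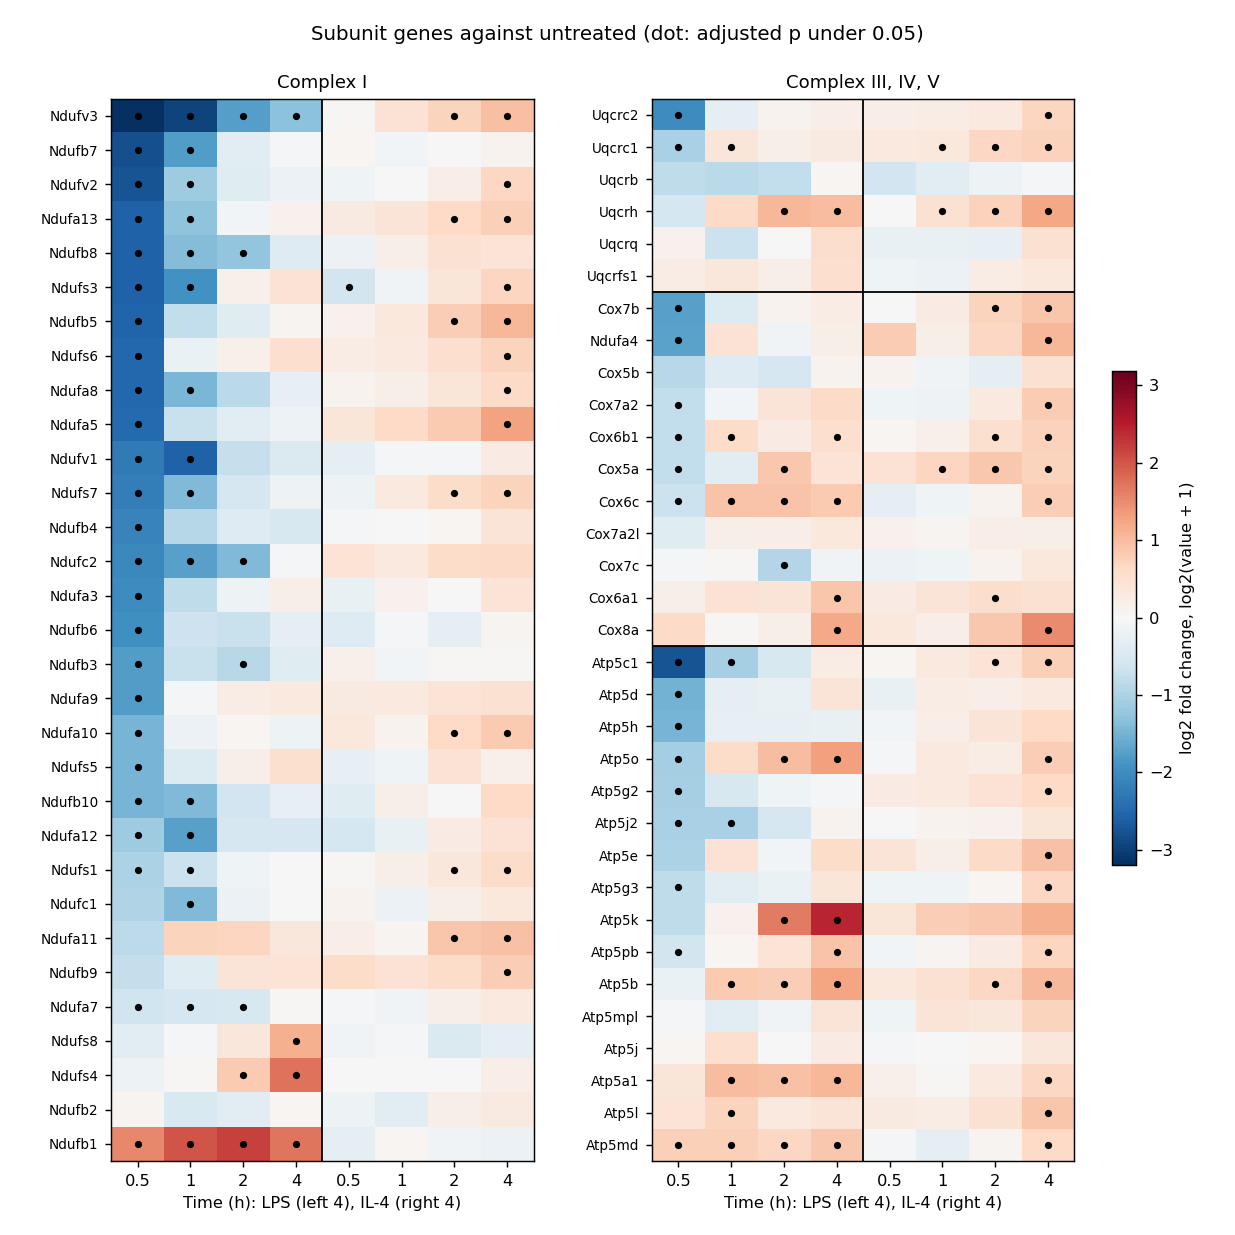
Log2 fold change against untreated (colour, on log2(value + 1)) of 64 of the subunit genes, sorted within each complex by the change at 0.5 h of LPS, at 4 times of LPS and 4 of IL-4; a black dot marks adjusted p under 0.05. Blue fills the first LPS column for most of complex I, and red prevails in the last IL-4 column, where 33 genes carry a dot.

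The electron-input arm of complex I is built around 7 core subunits measured here, which carry its flavin and iron-sulfur clusters. Of these, 6 were lower at 0.5 h of LPS, with a median of -2.20. Ndufv2, an iron-sulfur subunit next to the NADH site, read 88, 97 and 90 in untreated cells, then 11, 13 and 14 at 0.5 h of LPS. Its values were 33, 46 and 45 at 1 h, then 60, 78 and 74 at 2 h, and finally 72, 89 and 81 at 4 h. The 0.5 h samples lay far below all others, and the 4 h samples overlapped the untreated ones. In limma the change at 0.5 h was -2.77 (SE 0.18, adjusted p = 7.84e-09), and at 4 h it was -0.19 (adjusted p = 0.392).

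Ndufs3, which lies near the ubiquinone end of the arm, read 57, 56 and 40 untreated, 8, 7 and 8 at 0.5 h of LPS, and 5, 23 and 16 at 1 h. It was back at 60, 59 and 50 at 2 h and 56, 73 and 82 at 4 h. Its change at 0.5 h was -2.57 (SE 0.37, limma adjusted p = 3.73e-05), with no overlap with untreated samples until 2 h. Kbtbd4, whose start lies 19 bases from that of Ndufs3 on the other strand, changed by -2.26 at the same time. Ndufs1, the largest iron-sulfur subunit, went from 103, 112 and 118 to 43, 62 and 60 (limma -1.02, SE 0.23, adjusted p = 0.0014). Ndufv1, which binds NADH and the flavin, went from 19, 29 and 28 to 4, 3 and 7 (-2.25, SE 0.68, limma adjusted p = 0.0109). That call was lost without replicate 2 (-1.93, adjusted p = 0.139) and without replicate 3 (-2.45, adjusted p = 0.051).

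Ndufs8, an iron-sulfur core subunit, was the only core gene not called at 0.5 h, with 48, 42 and 68 untreated and 40, 46 and 37 under LPS. At 4 h it read 81, 154 and 119, above all untreated samples (limma 1.13, SE 0.26, adjusted p = 0.00142). Without replicate 2 that rise was 0.77 (adjusted p = 0.0544), and with totals made equal it was 0.53 (adjusted p = 0.0773). Tcirg1, 1730 bases downstream on the same strand, changed by 1.79 at 4 h, and Aldh3b1, 717 bases upstream on the same strand, by -0.25. Their part in the value of Ndufs8 was not tested.

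The 25 accessory subunits of complex I, which surround the core, were mostly lower as well: 19 were lower at 0.5 h of LPS and 1 was higher, with a median of -1.79. Ndufv3, an accessory subunit beside the NADH site, had the lowest fold change of all 65 genes. It read 33, 25 and 30 untreated, 3, 2 and 2 at 0.5 h of LPS, 3, 4 and 2 at 1 h, then 5, 11 and 9 at 2 h, and last 9, 12 and 13 at 4 h. No LPS sample reached the lowest untreated one. The limma changes were -3.19 (SE 0.33, adjusted p = 1.07e-06) at 0.5 h and -1.30 (adjusted p = 0.00267) at 4 h, and Ndufv3 was the only one of the 65 genes lower at all 4 LPS times. Ndufb5, in the membrane arm, went from 34, 29 and 37 to 4, 9 and 3 at 0.5 h (limma -2.55, adjusted p = 8.64e-05), and read 23, 44 and 44 at 4 h.

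Ndufb1 and Ndufs4 went the other way. Ndufb1, a small membrane-arm subunit, read 12, 23 and 20 untreated, 53, 62 and 46 at 0.5 h of LPS, 61, 90 and 74 at 1 h, then 68, 98 and 90 at 2 h and last 50, 61 and 70 at 4 h. Every LPS sample exceeded every untreated one, with limma changes of 1.54 (adjusted p = 8.75e-05) at 0.5 h and 2.19 (SE 0.25, adjusted p = 1.25e-06) at 2 h. The IL-4 samples stayed between 9 and 23. Cpsf2, which starts 236 bases away on the other strand, changed by 0.06 at 0.5 h and 1.59 at 2 h under LPS.

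Ndufs4, an accessory subunit needed for a stable complex I, has by far the longest gene of the 65, with a span of 100300 bases. It read 301, 346 and 357 untreated, 260, 288 and 363 at 0.5 h of LPS and 305, 344 and 375 at 1 h, all overlapping. At 2 h it read 516, 623 and 669, and at 4 h 980, 1216 and 1172. The late samples stood above every earlier one, with a limma change of 1.74 (SE 0.15, adjusted p = 4.62e-08) at 4 h. The rise at 2 h, 0.84, fell to 0.18 with equal totals and was then not called. With its high values Ndufs4 weighs on any sum: the summed value of complex I was 2168 ± 271 (SD, n = 3) at 4 h of LPS against 1301 ± 63.6 untreated, and without Ndufs4 1045 ± 146 against 967 ± 34.0.

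**Figure D2:**
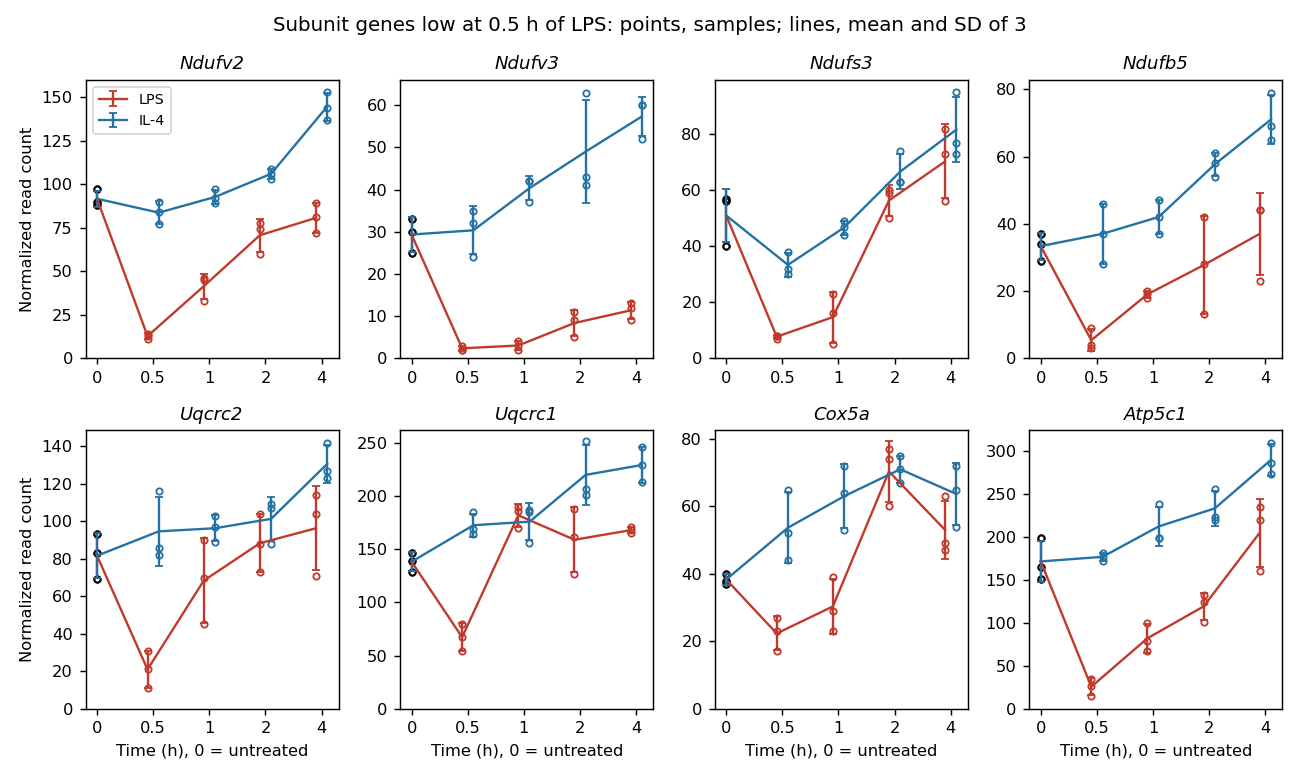
Normalized read counts of 8 subunit genes by time (h, 0 is untreated) in LPS (red) and IL-4 (blue); open circles are samples, lines join means and bars are SD (n = 3). In each panel LPS dips at 0.5 h, down to 11 to 14 for Ndufv2 and 2 to 3 for Ndufv3, and IL-4 is highest at a late time.

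Of 6 complex III genes, 2 were lower at 0.5 h of LPS. Uqcrc1 and Uqcrc2 encode its large core proteins. Uqcrc1 went from 147, 129 and 139 to 80, 68 and 54 at 0.5 h of LPS and then to 170, 190 and 186 at 1 h, and read 168, 171 and 165 at 4 h. The fall was 1.04 on the log2 scale (limma -1.04, SE 0.16, adjusted p = 6.53e-05), and the 0.5 h samples did not overlap the untreated ones. The higher values at 1 h (0.39, limma adjusted p = 0.044) were no longer called without replicate 2 (0.31) or replicate 3 (0.38), and the change was -0.19 with equal totals. Uqcrc2 went from 69, 83 and 93 to 11, 31 and 21 (limma -2.01, SE 0.32, adjusted p = 9.4e-05) and read 71, 114 and 104 at 4 h. Uqcrfs1, the Rieske iron-sulfur protein, was low and mixed, with 11, 9 and 15 untreated and 8, 21 and 15 at 0.5 h of LPS, and no time of either stimulus was called. Uqcrh, the hinge protein, read 22, 18 and 17 untreated and 49, 35 and 32 at 4 h of LPS (limma 0.97, adjusted p = 0.00553), a call that was lost with equal totals (0.39).

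Of 11 complex IV genes, 6 were lower at 0.5 h of LPS and 0 at 1 h. Cox5a, which sits on the matrix side, read 40, 37 and 38 untreated, 27, 17 and 23 at 0.5 h of LPS and 77, 74 and 60 at 2 h. Those samples lay below and above the untreated ones in turn, with limma changes of -0.78 (adjusted p = 0.00932) and 0.85 (adjusted p = 0.00402). The early call was lost without replicate 2 (-0.63) and replicate 3 (-0.81), and the later with equal totals. Cox5b, a zinc-binding subunit, read 7, 13 and 7 untreated and 4, 3 and 6 at 0.5 h, and no time was called against untreated. Cox6b1 went from 31, 38 and 40 to 18, 24 and 20, and to 48, 54 and 63 at 1 h (limma -0.79 and 0.58, adjusted p = 0.00895 and 0.0358). Without replicate 3 these were -0.70 and 0.56, and without replicate 2 the rise was 0.63, none of them called. Ndufa4 went from 14, 12 and 9 to 1, 6 and 3 (limma -1.71, adjusted p = 0.00191), and read 18, 18 and 13 at 1 h.

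Where complex IV has isoforms, the forms named for liver reached the level rule and those named for muscle did not. Cox6a1 read 8, 11 and 8 untreated and 11, 20 and 23 at 4 h of LPS (limma 0.88, adjusted p = 0.0211), a call lost without replicate 2 (0.915, adjusted p = 0.111), without replicate 3 (0.61) and with equal totals (0.32). Cox8a read 10, 6 and 13 untreated and 23, 17 and 30 at 4 h (limma 1.21, adjusted p = 0.00768), with no overlap, and the call was lost with equal totals. Cox7a2 went from 12, 11 and 11 to 4, 7 and 8 at 0.5 h (-0.79, limma adjusted p = 0.0414), a call that did not hold when any replicate was left out. Cox7a2l, whose protein has been linked to supercomplexes of complexes III and IV, read 46, 52 and 47 untreated and 28 to 77 over the LPS samples. No time was called against untreated.

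In the catalytic head of ATP synthase, Atp5c1, the rotating gamma shaft, fell at 0.5 h of LPS. Atp5a1 and Atp5b, the alpha and beta subunits where ATP is formed, were not called at that time (limma 0.38 and -0.21, adjusted p = 0.0787 and 0.596). Atp5c1 read 165, 151 and 198 untreated, 27, 15 and 35 at 0.5 h of LPS, 67, 79 and 100 at 1 h, then 101, 124 and 132 at 2 h and last 160, 235 and 219 at 4 h. The 3 earlier times lay below all untreated samples (limma -2.76, SE 0.26, adjusted p = 3.88e-07 at 0.5 h; -0.52, adjusted p = 0.0864 at 2 h). Atp5b read 39, 55 and 57 untreated, 31, 55 and 46 at 0.5 h, then 61, 105 and 111 at 1 h and last 93, 169 and 112 at 4 h. Its 4 h samples exceeded the untreated ones (limma 1.27, SE 0.31, adjusted p = 0.0023), a call lost with equal totals (0.66). Ptges3, 6053 bases upstream on the same strand, changed by 1.00 at that time, and Baz2a, 2395 bases downstream on the same strand, by -0.28.

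Atp5a1 read 70, 71 and 73 untreated, 69, 122 and 96 at 0.5 h of LPS, 139, 143 and 143 at 1 h, then 131, 145 and 139 at 2 h and last 154, 170 and 128 at 4 h. From 1 h on every LPS sample stood above every untreated one, with limma changes of 0.98 (SE 0.17, adjusted p = 0.00017) at 1 h and 1.06 (adjusted p = 7.37e-05) at 4 h. The calls at 1 and 2 h, but not at 4 h, were lost with equal totals. Haus1 overlaps Atp5a1 on the other strand, and it changed by -0.39 at 1 h and -0.86 at 4 h.

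The 2 measured genes for the c ring, the proton-driven rotor, were lower at 0.5 h: Atp5g2 went from 27, 30 and 28 to 9, 18 and 14 (limma -1.05, adjusted p = 0.0071) and Atp5g3 from 18, 29 and 24 to 11, 17 and 11 (limma -0.82, adjusted p = 0.012). Neither overlapped its untreated samples, but both calls were lost without replicate 3 (-1.10 and -0.70), and that of Atp5g3 without replicate 2 as well (-0.86). Of 4 stalk genes 3 were lower at 0.5 h, and each of these calls was lost without replicate 2 or without replicate 3. Atp5o, which ties the stalk to the head, read 13, 16 and 17 untreated, 4, 10 and 7 at 0.5 h and 38, 37 and 43 at 4 h (limma -1.09 and 1.31, adjusted p = 0.00287 and 0.000526), and the early call was lost without replicate 3 (-1.06). Atp5o, Atp5md and Atp5k are named here after their values were seen. Atp5md, a membrane subunit, read 34, 39 and 41 untreated and 51 to 75 in the LPS samples, and with Ndufb1 it was higher at all 4 times (limma 0.75, adjusted p = 0.00222 at 0.5 h). Each of its LPS calls against untreated was lost with equal totals, and that at 2 h also without replicate 2 (0.54). Its overlapping partner Taf5 changed by -1.67 at 0.5 h. Atp5k, another membrane subunit, rose from 1, 1 and 3 to 13, 12 and 13 at 4 h, which is how it passed the level rule, and Gm34319, 2 bases away on the other strand, changed by 3.78.

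**Figure D3:**
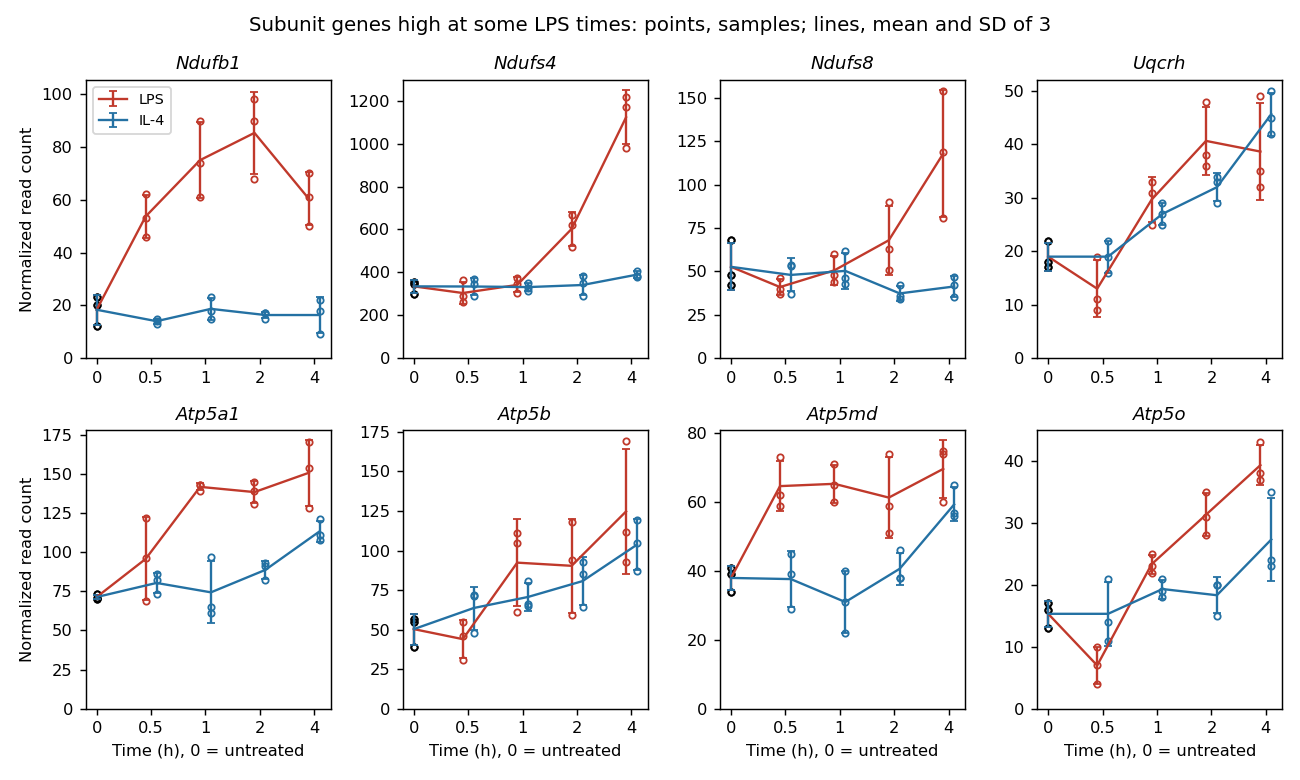
Normalized read counts of 8 subunit genes by time (h, 0 is untreated) in LPS (red) and IL-4 (blue); open circles are samples, lines join means and bars are SD (n = 3). Ndufs4 reaches 980 to 1216 at 4 h of LPS while IL-4 samples end at 378 to 406, and Ndufb1 is above untreated at all 4 LPS times.

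Over the later LPS times the subunit genes climbed back. At 1 h, 17 were lower and 9 higher (39.0% and 24.8% of all genes), at 2 h 6 lower and 11 higher (39.0% and 26.9% of all), and at 4 h 1 lower and 14 higher (37.6% and 25.9% of all). Atp5k was among those higher at 2 and 4 h, and Ndufc1 among those lower at 1 h. The level rule partly set both directions. The median change moved from -0.33 to -0.08 and 0.25, while that of all genes stayed between -0.30 and -0.26. Of the 41 genes lower at 0.5 h, 16 were still lower at 1 h, 5 at 2 h and 1 at 4 h, and 4 were higher at 4 h. Because the 41 were chosen by their values at 0.5 h, some return is built into these counts. Matching counts over all genes lower at 0.5 h are not given. Complex I supplied 15 of the 17 genes lower at 1 h, with Ndufs1 at -0.68 (not called without replicate 2 or 3). The lowest of the 4 LPS means was at 0.5 h in 51 of 65 genes, and the highest at 4 h in 49. Shares of all genes are not given for these 2 counts, so they have no baseline.

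These later counts depended on the scaling. With median-of-ratios scaling they were 14 lower and 15 higher at 1 h (32.1% and 31.0% of all genes), then 4 and 17 at 2 h (32.6% and 32.1%), and 1 and 22 at 4 h (31.6% and 31.0%). With equal totals 37 were lower and 1 higher at 1 h (55.7% and 15.5% of all genes), 28 and 2 at 2 h (57.4% and 17.0%), and 12 and 5 at 4 h (56.2% and 17.5%). The 37 are 56.9% of the 65, near the share of all genes. Equal totals moved the median of all genes to between -0.91 and -0.73. Without replicate 2 or replicate 3 the higher genes at 1 h dropped from 9 to 3, and the lower genes at 2 h from 6 to 3. Without replicate 3 the higher genes at 2 h dropped from 11 to 7. A direct contrast of 4 h with 0.5 h of LPS, added after the values were seen, does not use the untreated samples: 51 of 65 genes were higher at 4 h and 0 lower (78.5%; 32.3% of all genes were higher and 30.8% lower), with a median of 1.46. None was lower at an unadjusted p under 0.05 either, nor under any of the alternatives run. Atp5k, whose direction the level rule partly set, was among the 51 higher genes. In that contrast Ndufs3 was higher by 3.03 (limma adjusted p = 3.87e-06), Atp5c1 by 3.01 (adjusted p = 6.27e-08) and Ndufv2 by 2.58 (adjusted p = 7.21e-09). Over the whole course, 54 of 65 genes changed under LPS (limma F test, 83.1%), which is no more than the 87.6% of all genes tested.

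**Figure D4:**
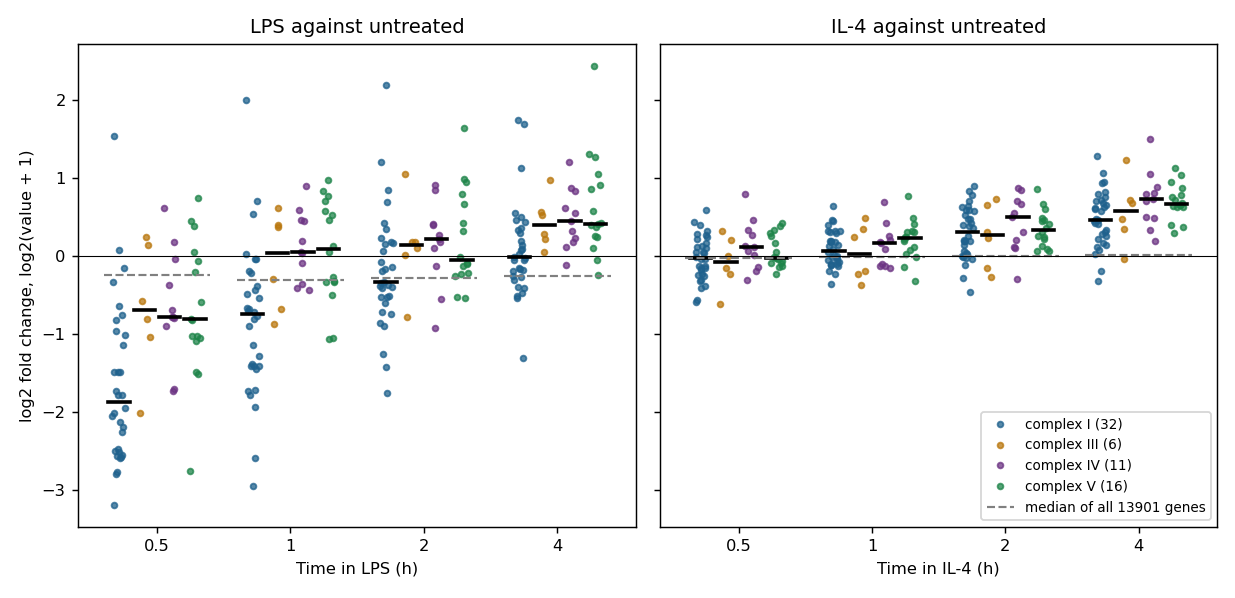
Log2 fold change against untreated (on log2(value + 1)) by time in LPS (left) and IL-4 (right); points are genes coloured by complex, black bars are medians of a complex and dashed lines the median of all genes tested. At 0.5 h of LPS complex I is centred at -1.87, below the other 3 complexes, and at 4 h of IL-4 all 4 medians lie above the dashed line, between 0.47 and 0.73.

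Over the IL-4 times subunit genes rose slowly and almost none was lower. Without untreated samples at these times, IL-4 and time in culture cannot be told apart. At 0.5 h 1 gene was lower, Ndufs3 (0 higher, where 8.15% of all genes were higher and 8.14% lower). Its values were 32, 30 and 38 (limma -0.59, adjusted p = 0.0209), not called without replicate 1 (-0.48) or replicate 2 (-0.44). At 1 h 3 genes were higher (11.1% of all) and 0 lower (9.83% of all), namely Cox5a, Uqcrc1 and Uqcrh. At 2 h 15 were higher (14.3% of all) and 0 lower (13.2%), and at 4 h 33 were higher (50.8%, against 13.4% of all) and 0 lower (12.5%). At an unadjusted p under 0.05, the counts higher and lower were 5 and 3 at 0.5 h, followed by 7 and 0, 27 and 1, and 40 and 0 at the later times. Shares of all genes at that looser threshold are not given, so these counts have no baseline. At 4 h 62 of 65 changes lay above 0. The median change at 4 h was 0.63, and that of all genes 0.02. The highest IL-4 mean was at 4 h in 56 of 65 genes. Shares of all genes are not given for this count or for the 62 above. At 4 h against 0.5 h of IL-4, the contrast added after the values were seen gave 26 higher and 0 lower (14.6% and 12.7% of all genes), with a median of 0.53, but 8 higher without replicate 2 and 7 without replicate 3. Over the whole IL-4 course 27 of 65 genes changed (limma F test, 41.5%), against 40.3% of all genes (7 without replicate 2 and 8 without replicate 3), with the largest change a rise in 26 of them.

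At 4 h of IL-4 the higher genes came from every complex: 13 of 32 for complex I, 3 of 6 for complex III, 7 of 11 for complex IV and 10 of 16 for ATP synthase. The count was 30 without replicate 1, 10 without replicate 2 and 10 without replicate 3, and 6 genes were called in all 3 of these fits: Atp5b, Atp5c1, Ndufb5, Ndufv2, Uqcrc1 and Uqcrh. With replicates 2 and 3 averaged, which deviated together, the count at 4 h was 14. At 2 h the 15 became 2 without replicate 2 and 5 without replicate 3. The median at 4 h without a replicate stayed between 0.57 and 0.64. Among the 14 genes averaging at least 50, 11 were higher at 4 h. Shares of all genes called in these fits are not given, so the counts cannot be set against the 13.4% of the main fit.

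Ndufb5 read 34, 29 and 37 untreated and 69, 79 and 65 at 4 h of IL-4, without overlap (limma 1.07, SE 0.17, adjusted p = 0.000411). Atp5b read 87, 105 and 119 there, also above every untreated sample (limma 1.04, SE 0.20, adjusted p = 0.00191). Atp5c1 rose from 165, 151 and 198 to 273, 309 and 286 (limma 0.76, SE 0.11, adjusted p = 0.000141), and Ndufv2 from 88, 97 and 90 to 137, 144 and 153 (limma 0.65, SE 0.09, adjusted p = 8.67e-05). Both had been among the lowest under LPS at 0.5 h. Uqcrc1, at 213, 246 and 229, was higher by 0.72 (limma adjusted p = 0.000187), and Uqcrh, at 42, 45 and 50, by 1.23 (limma adjusted p = 7.53e-05).

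Ndufv3 read 52, 60 and 60 at 4 h of IL-4, against 33, 25 and 30 untreated (limma 0.95, SE 0.19, adjusted p = 0.00197), and was not called without replicate 3 (0.94, adjusted p = 0.0731). Atp5l, a membrane subunit of ATP synthase, read 41, 26 and 39 untreated and 74, 71 and 51 at 4 h (limma 0.88, adjusted p = 0.00412), and was not called without replicate 2 (0.61). Other higher genes were Atp5a1 at 121, 111 and 108 (0.66), Atp5g2 at 39, 47 and 49 (0.64), Atp5g3 at 30, 39 and 44 (0.66), Cox7a2 at 22, 20 and 20 (0.81), Ndufa4 at 35, 23 and 19 (1.05) and Cox5a at 54, 65 and 72 (0.71). Without replicate 2 and without replicate 3 each of these 6 lost its call, at values of 0.56 to 1.13. Cox8a, at 24, 26 and 35, had the largest change, 2.82-fold on the scale of value + 1 (limma adjusted p = 0.00232), and without replicate 2 its change was 1.27 on the log2 scale and not called. Cox6b1 and Ndufs1 were higher by 0.73 and 0.58 and lost the call without replicate 2 alone (0.69 and 0.48), while Uqcrc2 and Ndufs3, both at 0.68, lost it without replicate 3 (0.72 and 0.59), Ndufs3 also without replicate 2 (0.79). Genes with no call at any IL-4 time included Ndufb1, Ndufs4 (378, 384 and 406 at 4 h, limma 0.22, adjusted p = 0.191), Ndufs8 and Ndufv1.

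At equal times the 2 stimuli were compared directly, in limma over all 27 samples and without use of the untreated values in the difference. At 0.5 h 45 of 65 genes were lower after LPS than after IL-4 and 2 higher (35.8% and 18.0% of all genes). At 1 h the counts were 22 lower and 7 higher (40.5% and 24.0% of all), at 2 h 20 and 8 (42.3% and 26.4%), and at 4 h 19 and 5 (41.9% and 26.1%). Atp5k, whose direction the level rule partly set, was among the 5 higher genes at 4 h. From 1 h on, the 33.8%, 30.8% and 29.2% of subunit genes that were lower were fewer than among all genes, but this order turned with equal totals. Median-of-ratios scaling gave 18 lower and 13 higher at 1 h (32.9% and 31.2% of all genes), then 11 and 10 at 2 h (35.0% and 32.3%), and 5 and 10 at 4 h (33.6% and 32.0%). Equal totals gave 40 and 3 at 1 h (55.1% and 15.8% of all genes), 48 and 2 at 2 h (60.0% and 17.4%), and 44 and 3 at 4 h (60.4% and 17.7%), where the lower genes made up 61.5%, 73.8% and 67.7% of the 65. Without replicate 3 the lower genes were 12 at 2 h and 8 at 4 h, and without replicate 2 10 at 4 h. The higher genes at 1 h were 3 and 4 without replicates 2 and 3. Those at 2 h were 4 without either, and those at 4 h were 3 without replicate 3.

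Ndufv3 had the largest LPS deficit against IL-4 at each time from 0.5 to 4 h, from -3.40 (limma adjusted p = 7.13e-11) at 1 h to -2.25 (adjusted p = 5.43e-08) at 4 h. Ndufv2 was lower by 2.63 on the log2 scale at 0.5 h (limma -2.63, SE 0.14, adjusted p = 2.06e-13), and its difference at 4 h was -0.84 (adjusted p = 1.26e-05). Ndufb1 was the gene with the largest excess at every time, 1.86 at 0.5 h and 1.89 at 4 h (limma adjusted p = 1.2e-06). At 4 h Ndufs4 was higher after LPS by 1.52 (adjusted p = 6.79e-10), Ndufs8 by 1.45 (adjusted p = 1.09e-05) and Atp5a1 by 0.40 (adjusted p = 0.0405), the last of which was -0.22 with equal totals and not called without replicate 2 (0.29) or replicate 3 (0.48). Complex I held 13 of the 19 genes lower after LPS at 4 h.

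The pathway around these subunits was read from gene lists drawn up for this purpose. All 4 complex II genes, which encode succinate dehydrogenase, were lower at 0.5 h of LPS and higher at 4 h of IL-4. Sdhb, its iron-sulfur subunit, went from 58.7 ± 1.53 to 15.3 ± 2.08 (SD, n = 3) and at 4 h of LPS was at 68.3 ± 5.13. At 4 h of IL-4 it was at 92.7 ± 10.5. Of 5 tested subunits that the symbol rule missed, 3 were lower at 0.5 h, including Ndufab1, the acyl carrier of complex I (limma -2.93, adjusted p = 7.83e-06). Cox4i1 did not follow, with 0.16 (adjusted p = 0.572), and Cycs, cytochrome c itself, was higher at 4 h of LPS, with 23.7 ± 6.03 against 4.67 ± 0.577 (SD, n = 3; limma adjusted p = 0.000203). Of 38 tested assembly factors 23 were lower at 0.5 h of LPS (median -0.90), and of 63 mitochondrial ribosomal protein genes 39 were lower (median -1.26), where 34.4% of all genes were lower. At 4 h of IL-4, 2 and 7 of these were higher, with medians of 0.25 and 0.29, where 13.4% of all genes were higher.

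The 13 genes of mitochondrial DNA were not called at any time of either stimulus, and 0 passed at an unadjusted p under 0.05 in limma. Their medians ran from -0.11 to 0.18 under LPS and -0.45 to 0.40 under IL-4. Their sums differed widely between samples of a group, from 716 to 5205 in untreated cells alone. Such changes were therefore not detectable in the main fit, which had no term for replicate number. A fit with a replicate block is not given for these genes.

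**Figure D5:**
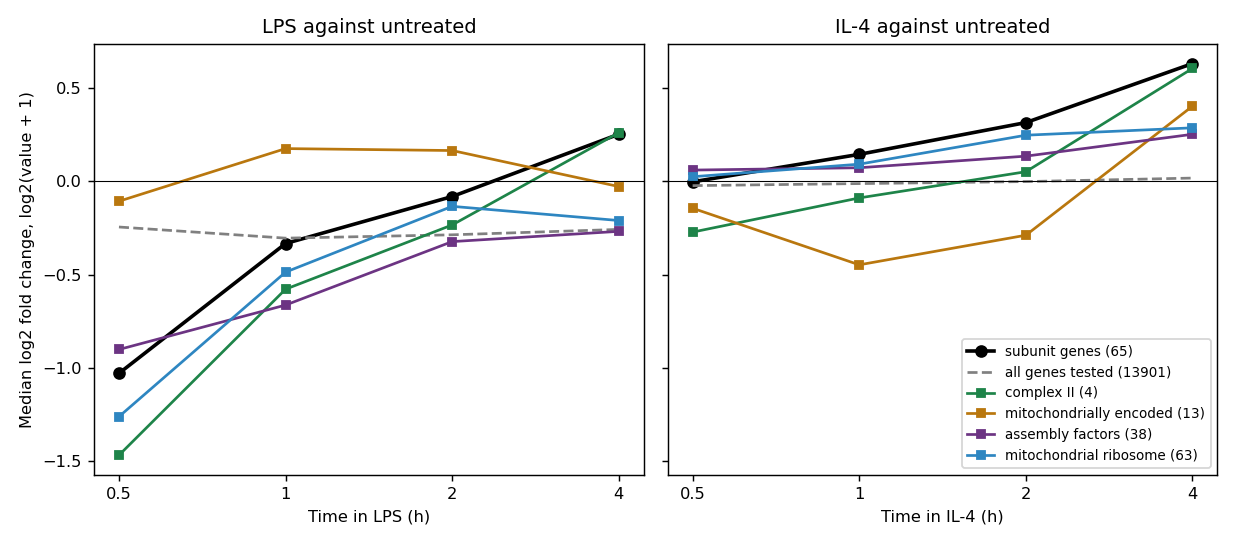
Median log2 fold change against untreated (on log2(value + 1)) by time in LPS (left) and IL-4 (right) for the 65 subunit genes, 4 lists of related genes and all genes tested, with the number of genes in brackets. The nuclear lists start low in LPS, at -0.90 to -1.47, and the genes of mitochondrial DNA stay near 0 there.

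Among 12 tested regulators of mitochondrial gene expression, 3 were lower and 2 higher at 0.5 h of LPS (34.4% and 19.6% of all genes). Tfam and Tfb2m, which start transcription in mitochondria, went from 24.7 ± 2.08 and 52.3 ± 4.93 to 2.67 ± 1.53 and 7.00 ± 3.61 (SD, n = 3), changes of -2.90 and -2.83 (limma adjusted p = 1.36e-05 and 4.59e-06). Gabpa was higher by 0.75 (adjusted p = 0.00106), and Nrf1 was not called (-0.17, adjusted p = 0.304). Ppargc1b, the coactivator PGC-1 beta, was at 65.7 ± 15.8 untreated, 1435 ± 235 at 2 h of LPS and 1262 ± 114 at 4 h of IL-4, changes of 4.44 and 4.27 (limma adjusted p = 7.18e-09 and 1.98e-07). Esrra, a nuclear receptor that works with it, rose by 1.55 at 4 h of LPS and 1.04 at 4 h of IL-4 (limma adjusted p = 5.29e-05 and 0.00699). Ppargc1a never averaged above 1.

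Across the 65 genes the change at 0.5 h of LPS and the length of the gene had a Spearman correlation of -0.28 (-0.32 for the 64 without Ndufs4), and with the level it was 0.005. At the other times and under IL-4 the correlation with length lay between -0.18 and 0.21. These are descriptions across genes of the same samples, not replicates. The members came from 19 chromosomes, and their promoters had a median G+C content of 57.8%, against 59.7% for all tested promoters.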

How the data were processed

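Chromatin-associated RNA of 27 BMDM samples, 9 groups of 3, was made into libraries with SMART-seq2 and random primers. Per the study's methods and the submitters' processing notes, single-end reads were mapped to mm10 with TopHat2 2.1.1, reads with several matches or in blacklisted regions were removed (bedtools 2.29.2), and reads were counted per RefSeq gene of GRCm38.p6 (R 3.6.2). The authors deposited normalized read counts, that is, a score per gene made by scaling the counts on invariant genes and rounding to whole numbers. Raw counts were not used, so depth per sample and its counting error are not given, and no count model was used. Removal of reads with several matches can lower genes with near-identical copies.

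Genes with values of at least 10 in at least 3 samples were kept (13901). Log2(value + 1) was tested with limma 3.58.1 in R 4.3.3 (empirical Bayes with trend). Each stimulus was fitted with the untreated samples, the direct contrasts were fitted over all 27, and the course was tested with an F test. P-values were Benjamini-Hochberg adjusted over all genes tested, with a threshold of 0.05. The study's own impulse model of the time courses was not run. The scripts were tested on simulated data. Members and gene lists were chosen with earlier results of these data known. Genes were named by rule: 18 fixed members, of which 1 is not reported here, and, per stimulus and direction, up to 4 with the largest change among genes averaging at least 50 in either group and not overlapping. Atp5k, Atp5md, Atp5o, Uqcrh and Ndufs6 were added after their values were seen, as was the contrast of 4 h with 0.5 h. Alternatives were a replicate block, a pseudocount of 8, a mean of at least 50, no filter, median-of-ratios scaling, equal totals, averaging of replicates 2 and 3, and leaving out each replicate number. Promoters came from RefSeq (GRCm38.p6).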

Additional observations from a re-analysis of the deposited data

Results flagged for a closer look

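Ndufv3 was the only subunit gene called in opposite directions by the stimuli at the same time, with the difference itself tested. At 2 h its change against untreated was -1.75 under LPS and 0.70 under IL-4, a difference of -2.45 (limma, adjusted p = 1.34e-08). At 4 h the changes were -1.30 and 0.95, a difference of -2.25 (limma, adjusted p = 5.43e-08). All 3 LPS samples lay below and all 3 IL-4 samples above the untreated ones at both times. The IL-4 call was lost without replicate 2 or 3 at 2 h and without replicate 3 at 4 h.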

How the results depend on the processing

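Counts of subunit genes are given as higher and lower. With a replicate block, LPS at 2 h had 10 lower, IL-4 at 0.5 h 1 and 2, and IL-4 at 1 h 5 higher. Same-numbered samples deviated together unevenly (lowest correlation 0.351 for number 1, 0.0897 for 2 and 0.202 for 3), so the numbers were not taken to pair samples, although 19 of 27 samples correlated best with their own number. Samples numbered 2 and 3 correlated with each other at up to 0.390, and those numbered 1 with other numbers at no more than -0.159. If numbers 2 and 3 share an origin, which the labels do not say, 3 samples per group overstate the independent ones. Among the 14 genes with a mean of at least 50, 13 changed over the LPS and 11 over the IL-4 course. There, LPS had 1 and 8, 4 and 3, 5 and 0, and 6 and 0 in order of time, IL-4 had 1 and 0 at 0.5 h, 6 higher at 2 h and 11 at 4 h, LPS against IL-4 had 1 and 9, 2 and 4, 4 and 5, and 3 and 5, and 4 h against 0.5 h had 13 higher in LPS and 10 in IL-4. With no filter, LPS at 1 h had 5 higher and LPS against IL-4 at 4 h 3. With median-of-ratios scaling, LPS had 5, 15, 17 and 22 higher at the 4 times, IL-4 at 1 h 1, and LPS against IL-4 13 higher at 1 h, 11 lower at 2 h, and 10 and 5 at 4 h. With equal totals, LPS had 1 higher at 0.5 h, then 1 and 37, 2 and 28, and 5 and 12. IL-4 then had 3 lower at 0.5 h and 1 higher at 1 h, and LPS against IL-4 1 higher at 0.5 h, 3 and 40, 2 and 48, and 3 and 44 later. With replicates 2 and 3 averaged, 8 genes changed over the IL-4 course, and the higher genes were 5 for LPS at 1 h, 0, 6 and 14 for IL-4 at 1, 2 and 4 h, 4 and 5 for LPS against IL-4 at 1 and 2 h, and 11 for IL-4 at 4 h against 0.5 h. IL-4 at 0.5 h then had 0 lower, and LPS against IL-4 at 4 h 3 and 12. The causes were not tested.

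Leaving out each replicate number gave 40 to 55 genes changed over the LPS and 7 to 25 over the IL-4 course. For LPS the ranges were 2 to 4 higher and 27 to 40 lower at 0.5 h, 3 to 11 higher at 1 h, 7 to 13 and 3 to 4 at 2 h, and 10 to 17 and 1 to 2 at 4 h. For IL-4 they were 0 to 2 and 0 to 1 at 0.5 h and at 1 h, 2 to 10 higher at 2 h, and 10 to 30 at 4 h. For LPS against IL-4 they were 3 to 8 higher at 1 h, 4 to 9 and 12 to 16 at 2 h, and 3 to 4 and 8 to 13 at 4 h, and for IL-4 at 4 h against 0.5 h 7 to 24 higher. Shares of all genes are given only for the main fit, median-of-ratios scaling and equal totals.

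Of 150 called values of 29 named genes, none changed direction except 5 with equal totals: Uqcrc1 at 1 h of LPS (-0.19), Cox6b1 at 4 h of LPS (-0.05), and, LPS against IL-4, Atp5a1 at 4 h (-0.22), Atp5l at 1 h (-0.0071) and Atp5md at 2 h (-0.0493). All 150 kept their call with the replicate block, 147 with a pseudocount of 8, 128 with median-of-ratios scaling, 127 with no filter, 116 with equal totals, 105 with replicates 2 and 3 averaged, and 130, 92 and 96 without replicates 1, 2 and 3. Low values limit most of these genes, and depth was not given.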
